A study of Mus musculus with 4 samples.

Results

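The 10 genes described here mark the mast cell and basophil lineage: Gata2, Fcer1a, Ms4a2, Fcer1g, Cpa3, Mcpt8, Prss34, Tpsb2, Hdc and Srgn. They were chosen by symbol, and all 10 were found among the 23756 genes of the deposited table. RNA-seq libraries were compared from 32D cells (32Dcl3), a murine hematopoietic line that normally needs interleukin-3 (IL-3) to grow. All 4 libraries carry the genotype Abl1 KO, made with lentiviral CRISPR/Cas9 and puromycin selection, so there is no unedited group here. Abl1ko/IL3+ cells were kept with IL-3 (2 libraries), and Abl1ko/IL3- cells had grown out after its gradual withdrawal (2 libraries). The replicates are biological duplicates by the series description, and selected clones were used for the experiments, but no source ties a clone or guide to a library. With 2 libraries in each group, p-values rest on the spread between these libraries.

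Mast cells and basophils are granulocytes that bind immunoglobulin E (IgE) through the high-affinity receptor FcεRI and release histamine, proteases and lipid mediators when the receptor is cross-linked. IL-3 is a growth and survival factor for both cells, and mouse basophils expand under it. GATA2 is a transcription factor needed for both lineages, and the genes for the FcεRI alpha and beta chains and for carboxypeptidase A3 are known GATA targets. Serglycin is the proteoglycan core on which the charged granule contents are packed.

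The libraries held between 48953174 and 60382588 counts. Levels are given as CPM, counts scaled to a common library total, over library sizes scaled by edgeR's TMM method, and a count of 3, used as the limit of detection for counting error only, came to between 0.0465 and 0.0627 CPM. Abl1 stood at 20.5 and 40.9 CPM in the Abl1ko/IL3+ libraries and at 32.3 and 38.9 CPM in the Abl1ko/IL3- libraries. Both groups carry the knockout and small edits can leave the transcript in place, so these values do not check the labels. The labels call the line a pre-B-cell. Of 11 B cell markers, 7 were in the table, and their summed level was between 19.0 and 26.1 CPM. Cd79b stood at between 11.2 and 16.2 CPM, and Cd79a at 11.7 CPM in Abl1ko/IL3+ replicate 2 and at 1.73 CPM or less in the other libraries. Rag1 and Ms4a1 each had 4 counts in a single library. Kit, which encodes the stem cell factor receptor that defines tissue mast cells, was counted 0 and 4 times with IL-3 and 4 and 0 times without it. The 10 genes are therefore described as lineage genes of this line and not as a measure of mast cells. In bulk RNA, fewer cells of a type and less RNA per cell cannot be told apart.

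The sequences before the start sites of 4 members are shown because GATA factors are known to act on this family and Gata2 is itself a member. Each sequence is 250 bases before the RefSeq start in build GRCm38.p6, written 5′ to 3′ on the gene's strand. Capitals mark a GATA motif (the letters GATA with A or T before and A or G after them, on either strand). All 4 hold such a motif, and no window without one is printed.
Fcer1a promoter, chr1:173227230-173227479, minus strand: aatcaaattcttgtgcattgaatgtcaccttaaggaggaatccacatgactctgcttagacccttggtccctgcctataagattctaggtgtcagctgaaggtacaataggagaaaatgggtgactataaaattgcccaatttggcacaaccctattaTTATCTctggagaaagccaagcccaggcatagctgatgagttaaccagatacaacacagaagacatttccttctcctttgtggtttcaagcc
Cpa3 promoter, chr3:20242182-20242431, minus strand: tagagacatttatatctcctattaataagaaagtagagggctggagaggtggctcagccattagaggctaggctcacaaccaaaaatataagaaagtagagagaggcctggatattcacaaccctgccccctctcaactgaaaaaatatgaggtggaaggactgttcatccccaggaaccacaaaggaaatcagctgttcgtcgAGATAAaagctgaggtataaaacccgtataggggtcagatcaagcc
Prss34 promoter, chr17:25298144-25298393, plus strand: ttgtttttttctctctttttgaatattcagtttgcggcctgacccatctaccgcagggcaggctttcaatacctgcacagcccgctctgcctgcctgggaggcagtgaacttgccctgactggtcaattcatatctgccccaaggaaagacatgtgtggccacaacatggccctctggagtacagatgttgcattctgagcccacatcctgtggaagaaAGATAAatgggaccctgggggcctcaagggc
Ms4a2 promoter, chr19:11623720-11623969, minus strand: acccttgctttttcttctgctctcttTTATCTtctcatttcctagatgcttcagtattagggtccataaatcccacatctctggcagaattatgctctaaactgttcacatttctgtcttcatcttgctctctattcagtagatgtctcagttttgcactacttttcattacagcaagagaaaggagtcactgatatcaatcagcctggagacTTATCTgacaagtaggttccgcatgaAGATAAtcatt
Of the 9 members with a promoter in the RefSeq table, 5 held a GATA motif in these 250 bases, and 26.5% of all 32851 promoters did. Members were counted once per gene and the background once per promoter, and base composition was not matched. The 5 members' windows with a motif held between 38.8% and 52.4% G or C, and the members' windows without one between 42.8% and 74.0%. The median over all promoters was 52.4%. Ms4a2 held 3 motifs, starting 224, 37 and 11 bases before the start, and 2 or more were held by 6.40% of all promoters. Cpa3 held 1 at 46 bases, Prss34 1 at 31 bases, Fcer1a 1 at 92 bases and Hdc 1 at 221 bases before the start. None was found in the windows of Gata2, Fcer1g, Mcpt8 and Srgn, which says only that these letters are not there. A match describes the letters and is no evidence of binding.

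No member passed the test between Abl1ko/IL3- and Abl1ko/IL3+ cells. Several members differed widely between the 2 Abl1ko/IL3+ libraries. Fcer1a was 150.6-fold, Cpa3 12.1-fold, Gata2 6.37-fold and Prss34 5.17-fold higher in Abl1ko/IL3+ replicate 1 than in replicate 2. Mcpt8 had the opposite order and was 2.65-fold higher in replicate 2. Hdc, the gene for the enzyme that makes histamine, was the only member whose groups did not overlap. In either direction, groups did not overlap for 37.3% of all genes tested.

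The counts were tested by quasi-likelihood in edgeR with p-values adjusted after Benjamini and Hochberg. Of the members, 9 passed the expression filter and 0 had an adjusted p-value under 0.05, as did 0 of all 16535 genes tested (0.0%). The count was also 0 of 9 at an unadjusted p-value under 0.05, which 5.91% of all genes reached. DESeq2 and limma on FPKM gave 0 of 9 after adjustment too, and DESeq2 gave 1 of 9, Hdc, at an unadjusted p-value under 0.05. The log2 fold change was below 0 for 8 of the 9 members, with a median of -0.70. Over all genes tested, the log2 fold change was below 0 for 8589 of 16535, with a median of -0.027. Without Abl1ko/IL3+ replicate 1 it was below 0 for 4 of the 9 members, with a median of 0.068, so the members' direction rests on that library. Its removal turned the sign of 4 of the 9 members and of 24.4% of all genes. Leaving out Abl1ko/IL3+ replicate 2 turned 2 of 9 (20.8% of all genes), Abl1ko/IL3- replicate 1 turned 3 of 9 (14.9%) and Abl1ko/IL3- replicate 2 turned 0 of 9 (12.4%). Only Fcer1a turned with limma on log2(FPKM + 1), as 4.6% of all genes did. Abl1ko/IL3+ replicate 1 was the highest library for 5 of the 9 (31.8% of all genes) and Abl1ko/IL3+ replicate 2 for 3 (28.3%). At least 4 times as much in Abl1ko/IL3+ replicate 1 as in replicate 2, with 0.5 CPM added, was found for 4 of the 9 and for 3.71% of all genes.

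**Figure D1:**
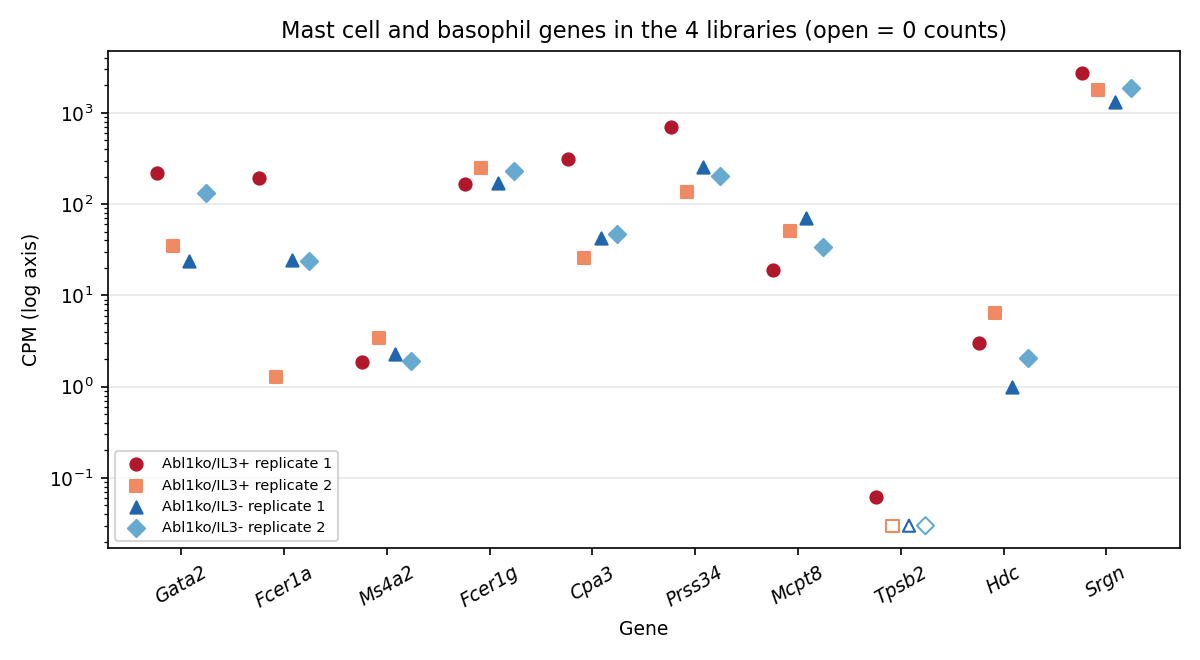
Level of each of the 10 genes in each of the 4 libraries, in CPM on a log axis, with open symbols for libraries at 0 counts drawn at an arbitrary low position. Fcer1a, Cpa3, Gata2 and Prss34 are highest in Abl1ko/IL3+ replicate 1. The groups are apart only for Hdc, beside 37.3% of all genes tested in either direction.

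Gata2 (ENSMUSG00000015053, chromosome 6 from 88193891 to 88207032, plus strand) is given, like the other members, by its GRCm38 coordinates. It stood at 220.8 and 34.7 CPM in Abl1ko/IL3+ replicates 1 and 2, and at 23.7 and 133 CPM in Abl1ko/IL3- replicates 1 and 2. Each group thus held a high and a low library, and the groups overlapped. Set as Abl1ko/IL3- over Abl1ko/IL3+, the log2 fold change was -0.70 ± 1.13 (SE, edgeR adjusted p = 0.973). Gata2 was the only member with a gap of over 5-fold in both groups, 6.37-fold with IL-3 and 5.62-fold without it. A gap as wide, on the log2 scale with 0.5 CPM added, was seen for 2.26% of the genes tested in the Abl1ko/IL3+ pair and for 1.74% in the Abl1ko/IL3- pair.

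FcεRI is built from an IgE-binding alpha chain (Fcer1a), a signal-amplifying beta chain (Ms4a2) and a signalling gamma chain (Fcer1g) that other Fc receptors also use. Fcer1a (ENSMUSG00000005339, chromosome 1 from 173221284 to 173227214, minus strand) was counted 12502 and 70 times in the Abl1ko/IL3+ pair, or 194 and 1.29 CPM. The Abl1ko/IL3- pair gave 1174 and 1380 counts, or 24.5 and 23.8 CPM. The libraries without IL-3 were nearly equal and lay between the Abl1ko/IL3+ libraries. A gap as wide as that between the Abl1ko/IL3+ libraries was seen for 0.0242% of the genes tested. Fcer1a had a log2 fold change of -2.02 ± 1.83 (SE, edgeR adjusted p = 0.933). Without Abl1ko/IL3+ replicate 1 it was 4.24 (edgeR adjusted p = 0.166), and without Abl1ko/IL3+ replicate 2 it was -3.01, so the sign depended on which Abl1ko/IL3+ library was kept. With the replicate number as a block it was 0.57 (edgeR, adjusted p = 0.9998), where 6.15% of all genes tested turned their sign.

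Ms4a2 (ENSMUSG00000024680, chromosome 19 from 11615523 to 11623719, minus strand) was low in every library, at 1.85 and 3.40 CPM with IL-3 and 2.30 and 1.90 CPM without it. These values overlapped between the groups (log2 fold change -0.32 ± 0.59 SE, edgeR adjusted p = 0.975). Fcer1g (ENSMUSG00000058715, chromosome 1 from 171229572 to 171234365, minus strand) stood at 168 and 251 CPM with IL-3 and at 172 and 229 CPM without it. It had the smallest change of the members, a log2 fold change of -0.065 ± 0.37 (SE, edgeR adjusted p = 0.996). Counted per length, the 3 chains were far apart. In FPKM, Fcer1g was between 238 and 389 times the level of Ms4a2 across the 4 libraries. Fcer1a was level with Fcer1g in Abl1ko/IL3+ replicate 1, at 187 and 185 FPKM. In Abl1ko/IL3+ replicate 2, Fcer1g was 224 times Fcer1a, and in the Abl1ko/IL3- libraries 7.99 and 11.02 times.

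**Figure D2:**
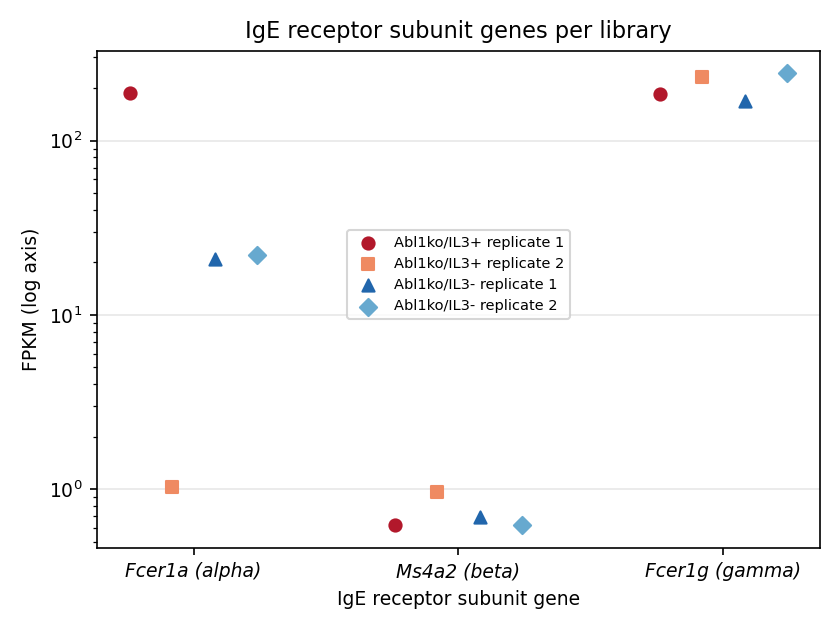
FPKM of the 3 FcεRI subunit genes in each library, on a log axis. The gamma chain gene stays between 168 and 243 FPKM and the beta chain gene under 1 FPKM, while the alpha chain gene runs from 1.03 to 187 FPKM.

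Among the protease genes, Cpa3 (ENSMUSG00000001865, chromosome 3 from 20215620 to 20242181, minus strand) encodes mast cell carboxypeptidase A3, which is stored with serglycin in the granule. It stood at 313 and 25.7 CPM with IL-3, and at 42.6 and 46.9 CPM without it. As for Fcer1a, the Abl1ko/IL3- libraries lay close together and between the Abl1ko/IL3+ libraries. The log2 fold change was -1.92 ± 1.11 (SE, edgeR adjusted p = 0.878), and it was 0.81 without Abl1ko/IL3+ replicate 1. Prss34 (ENSMUSG00000056399, chromosome 17 from 25298394 to 25300165, plus strand) encodes mast cell protease 11, a tryptase of basophils. It stood at 695 and 134 CPM with IL-3 and at 252 and 202 CPM without it. Its order of libraries was again Abl1ko/IL3+ replicate 1 above both Abl1ko/IL3- libraries, with Abl1ko/IL3+ replicate 2 lowest. The log2 fold change was -0.87 ± 0.79 (SE, edgeR adjusted p = 0.932), and 0.77 without Abl1ko/IL3+ replicate 1.

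Mcpt8 (ENSMUSG00000022157, chromosome 14 from 56082166 to 56085273, minus strand) encodes mast cell protease 8, a serine protease used as a basophil marker in the mouse. It stood at 19.0 and 50.4 CPM with IL-3 and at 70.7 and 33.8 CPM without it. Mcpt8 was the only tested member with a fold change above 0, at 0.59 ± 0.63 on the log2 scale (SE, edgeR adjusted p = 0.942), and without Abl1ko/IL3- replicate 1 it was -0.037. The groups overlapped, and Abl1ko/IL3+ replicate 1 was the lowest library, whereas it was the highest for Prss34, the other basophil protease. Tpsb2 (ENSMUSG00000033825, chromosome 17 from 25366305 to 25369098, plus strand), which encodes a mast cell tryptase, had 4 counts in Abl1ko/IL3+ replicate 1 and 0 in the other libraries. It did not pass the expression filter and was not tested, so that only 1 library passed the limit of 3 counts.

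The protease genes lie in clusters, and their neighbours were read as well. On chromosome 17, 8 genes of the table fall within the 70.7 kb from Prss34 to Tpsb2. Prss28, an implantation-type tryptase gene next to Prss34, stood at 71.8 and 7.85 CPM with IL-3 and at 27.6 and 19.8 CPM without it, the same order of libraries as Prss34. Prss29 was counted 73 and 4 times with IL-3, and was at 0 in both Abl1ko/IL3- libraries. Tpsab1, another mast cell tryptase gene, was counted 29 and 19 times with IL-3 and 0 and 145 times without it, so the gene nearest to Tpsb2 did not follow Prss34. On chromosome 14, Ctsg, the cathepsin G gene of myeloid granules, stood at 99.6 and 263 CPM with IL-3 and at 125 and 105 CPM without it. Ctsg was lowest in Abl1ko/IL3+ replicate 1, as Mcpt8 was. Cma1, the chymase gene of the same cluster, was lowest in Abl1ko/IL3+ replicate 2 instead, at 2.85 CPM against 17.4 CPM in replicate 1 and 16.7 and 13.6 CPM without IL-3. Mcpt1 and Mcpt4, proteases of mucosal and connective tissue mast cells, had at most 4 and 8 counts in any library. None of the neighbours tested had an adjusted p-value under 0.05 in edgeR.

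**Figure D3:**
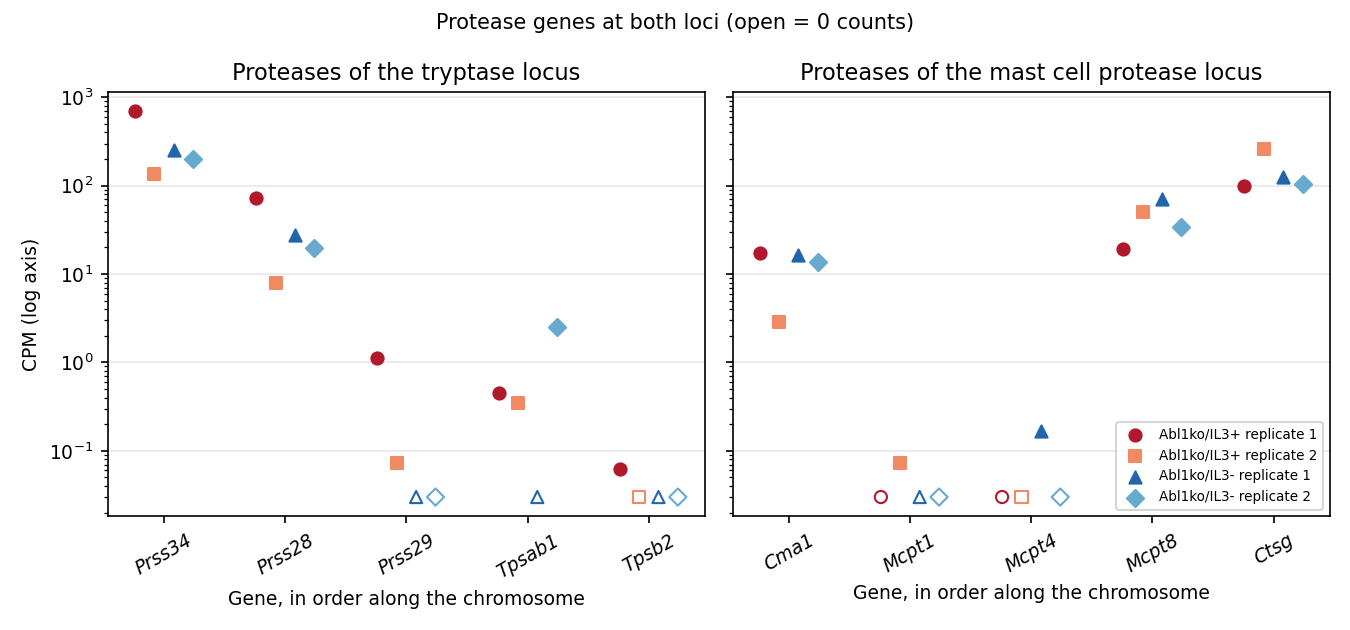
CPM on a log axis of protease genes of the cluster on chromosome 17 (left) and of that on chromosome 14 (right), in order along each chromosome, with open symbols for 0 counts. Prss34, Prss28 and Prss29 are highest in Abl1ko/IL3+ replicate 1, while Mcpt8 and Ctsg are lowest there.

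Hdc (ENSMUSG00000027360, chromosome 2 from 126593667 to 126618678, minus strand) encodes histidine decarboxylase, which makes histamine. It was counted 196 and 352 times with IL-3 and 48 and 119 times without it, or 3.04 and 6.47 CPM against 1.003 and 2.05 CPM. Both Abl1ko/IL3- libraries lay below both Abl1ko/IL3+ libraries, as they did for 17.9% of all genes tested. The log2 fold change was -1.64 ± 0.69 (SE, edgeR adjusted p = 0.854), with an unadjusted p-value of 0.0647. Hdc kept a negative fold change under every alternative run, between -2.23 and -0.42, where the latter is on the log2(FPKM + 1) scale that compresses low values. Its adjusted p-value ranged from 0.269 to 0.9999 over these alternatives. Hdc was nevertheless at low levels, under 1 FPKM in all 4 libraries.

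Srgn (ENSMUSG00000020077, chromosome 10 from 62493833 to 62527451, minus strand), the serglycin gene, is expressed in many blood cells and was the most abundant member in every library. It stood at 2709 and 1798 CPM with IL-3 and at 1309 and 1888 CPM without it, and the groups overlapped (log2 fold change -0.50 ± 0.42 SE, edgeR adjusted p = 0.924). Srgn alone took 174633 of the 278714 counts of the 10 genes in Abl1ko/IL3+ replicate 1. Without Srgn, the other members took 0.174% of all counts in Abl1ko/IL3+ replicate 1, 0.0457% in replicate 2, and 0.0576% and 0.0706% in the Abl1ko/IL3- libraries.

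Per length, the order of the members was read in FPKM over the 4 libraries. Srgn came first at 787 ± 291 FPKM (SD, n = 4), followed by Prss34 at 242 ± 208 FPKM and Fcer1g at 207 ± 35.8 FPKM. Prss34 was above Fcer1g in replicate 1 of each group and below it in the other libraries, so these neighbours did not differ beyond their spread. Cpa3 (66.1 ± 88.4 FPKM), Fcer1a (57.7 ± 86.7 FPKM), Mcpt8 (37.7 ± 17.8 FPKM) and Gata2 (17.8 ± 16.8 FPKM) changed places between libraries and overlapped. Ms4a2 (0.727 ± 0.165 FPKM), Hdc (0.424 ± 0.289 FPKM) and Tpsb2 held the last places in every library. These SDs cover both groups, since no member passed the test between them.

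**Figure D4:**
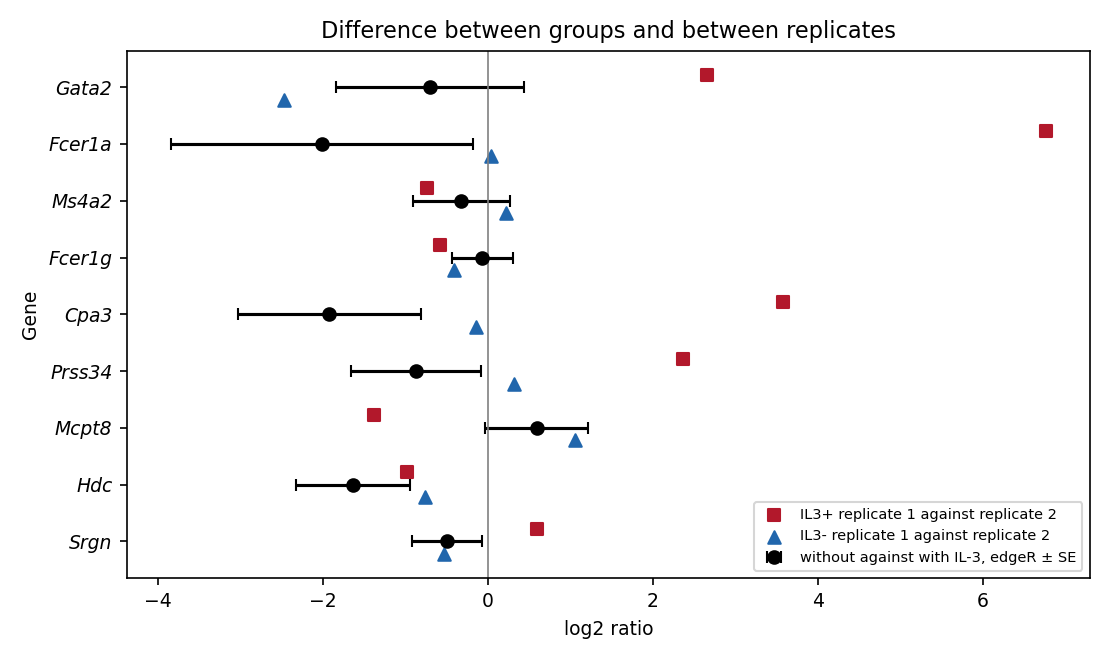
For the 9 tested genes, the log2 fold change of Abl1ko/IL3- over Abl1ko/IL3+ (black, edgeR, ± SE) beside the log2 ratio of replicate 1 to replicate 2 within Abl1ko/IL3+ (squares) and within Abl1ko/IL3- (triangles), with 0.5 CPM added for the ratios. The squares of Fcer1a, Cpa3, Gata2 and Prss34 lie at 6.77, 3.58, 2.65 and 2.37, farther from 0 than their group differences. The squares of Ms4a2, Fcer1g, Mcpt8 and Srgn also lie farther from 0 than their group differences, and only that of Hdc does not.

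Other genes of the pathway were read from lists of known roles. Of 19 genes that carry the signal from FcεRI, all were tested and 16 had a log2 fold change below 0, with a median of -0.39. Over all 16535 genes tested, 8589 were below 0. Before adjustment 3 of the 19 were under 0.05, each lower without IL-3, beside 3.36% of all genes tested in that direction, and 0 passed after adjustment. Plcg1, a phospholipase gene of the calcium response, stood at 62.0 and 35.1 CPM with IL-3 and at 7.67 and 12.5 CPM without it (log2 fold change -2.27, adjusted p = 0.727 in edgeR). Btk, a kinase upstream of it, had a log2 fold change of -1.43 (adjusted p = 0.737) and Orai1, the calcium channel, of -2.17 (adjusted p = 0.841). The more abundant Plcg2 overlapped between the groups, at 141 and 85.7 CPM with IL-3 and at 71.4 and 86.0 CPM without it (log2 fold change -0.52, adjusted p = 0.904 in edgeR). Ptpn6, a phosphatase gene and the first of its list by mean FPKM over the 4 libraries, stood at 271 and 520 CPM with IL-3 and at 343 and 292 CPM without it. Lyn, Fyn and Vav1, which act near the receptor, had log2 fold changes of 0.20, -0.36 and 0.0012. Abl1ko/IL3+ replicate 1 was the highest library for 13 of these 19 genes, beside 31.8% of all genes tested. Without it the median was -0.11, with 11 of 19 below 0.

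Of 17 surface receptors of mast cells and basophils, 13 were tested, with 5 log2 fold changes above and 8 below 0 and a median of -0.21. Il1rl1, the interleukin-33 receptor gene, stood at 211 and 51.3 CPM with IL-3 and at 39.1 and 30.8 CPM without it (log2 fold change -1.91, adjusted p = 0.841 in edgeR). Crlf2, a subunit gene of the receptor for thymic stromal lymphopoietin, stood at 12.1 and 15.1 CPM with IL-3 and at 31.0 and 31.3 CPM without it (log2 fold change 1.20, adjusted p = 0.737 in edgeR). These were the only receptors of the list with an unadjusted p-value under 0.05, which 2.56% of all genes reached upward and 3.36% downward. Cd63, a granule membrane gene and the first of its list by mean FPKM over the 4 libraries, stood at 887 and 946 CPM with IL-3 and at 1072 and 1114 CPM without it. Cd200r3, a basophil receptor gene, was counted 309 and 0 times with IL-3 and 37 and 77 times without it. Abl1ko/IL3+ replicate 1 was thus highest and replicate 2 lowest, as for Fcer1a. Other basophil markers of this list had the opposite order within the Abl1ko/IL3+ pair. Il3ra, the IL-3 receptor alpha chain gene, stood at 38.1 and 117 CPM with IL-3 and at 102 and 58.7 CPM without it. Itga2 was low, at 0.450 and 0.681 CPM with IL-3 and at 0.773 and 0.655 CPM without it. Without Abl1ko/IL3+ replicate 1, the median of this list was 0.22.

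Of 16 genes for amine, eicosanoid and heparin synthesis and for granule release, 12 were tested, 5 above and 7 below 0, with a median of -0.27. Alox5, the gene for the enzyme that starts leukotriene synthesis, stood at 332 and 73.9 CPM with IL-3 and at 31.2 and 45.1 CPM without it (log2 fold change -2.41, adjusted p = 0.785 in edgeR). Ndst2, which sulfates heparin in the mast cell granule, stood at 55.7 and 55.2 CPM with IL-3 and at 29.0 and 32.0 CPM without it (log2 fold change -0.86, adjusted p = 0.827 in edgeR). These 2 genes alone had an unadjusted p-value under 0.05 there, both lower without IL-3, as 3.36% of all genes tested were. Slc18a2, the vesicle transporter that loads histamine into granules, was abundant in every library, between 617 and 1693 CPM, while Hdc was not above 6.47 CPM. The median of this list without Abl1ko/IL3+ replicate 1 was -0.26.

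Of 16 transcription factors known in these lineages, all were tested and 0 had an unadjusted p-value under 0.05, with a median of -0.31. Gata1, the other GATA factor of mast cells, stood at 215 and 366 CPM with IL-3 and at 168 and 151 CPM without it. Its order within the Abl1ko/IL3+ pair was opposite to that of Gata2. Mitf, which drives mast cell genes, stood at 6.53 and 3.24 CPM with IL-3 and at 6.06 and 0.81 CPM without it. Cebpa, a factor that favours basophils over mast cells, stood at 145 and 49.6 CPM with IL-3 and at 52.7 and 65.9 CPM without it. Abl1ko/IL3+ replicate 1 was the highest library for 10 of the 16 factors, beside 31.8% of all genes tested, and without this library the median was 0.11.

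Fcer1g also serves other receptors, of which 8 listed genes were tested, Tyrobp, a related adaptor, among them. Their median log2 fold change was 0.59, with 6 above 0 and 0 at an unadjusted p-value under 0.05, and without Abl1ko/IL3- replicate 2 the median was -0.036. Of 7 cytokine genes of basophils, 6 were tested, 4 above and 2 below 0, with a median of 0.75 and 0 at an unadjusted p-value under 0.05, and without Abl1ko/IL3- replicate 2 the median was 0.068. Il4, the leading basophil cytokine, stood at 27.5 and 9.49 CPM with IL-3 and at 4.83 and 10.5 CPM without it. Ccl3, a chemokine gene that led the list by mean FPKM through Abl1ko/IL3- replicate 2 alone and was below Il4 in the other libraries, stood at 2.48 and 0.754 CPM with IL-3 and at 2.72 and 28.0 CPM without it. Il13 had 11 counts in Abl1ko/IL3- replicate 2 and 0 in the other libraries. Of 12 other protease genes, 4 were tested, 2 above and 2 below 0, with a median of -0.036, and 1.73 without Abl1ko/IL3+ replicate 1.

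**Figure D5:**
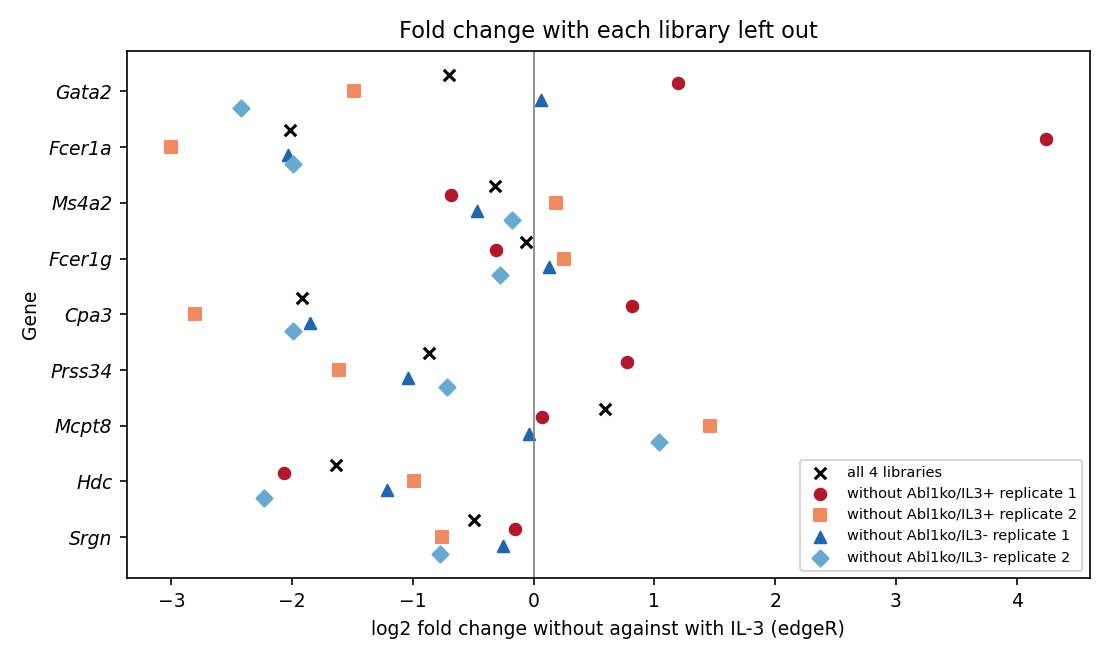
Log2 fold change of Abl1ko/IL3- over Abl1ko/IL3+ for the 9 tested genes, from edgeR on all 4 libraries (crosses) and with each library left out. Leaving out Abl1ko/IL3+ replicate 1 moves Fcer1a, Gata2, Cpa3 and Prss34 to the right of 0, to 4.24, 1.19, 0.81 and 0.77, while Hdc and Srgn stay left of 0 throughout.

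Markers of other cell types also differed between these libraries. Of 11 erythroid and megakaryocyte markers, 8 were tested and all 8 were highest in Abl1ko/IL3+ replicate 2, beside 28.3% of all genes tested. Their summed level was 201 and 7116 CPM with IL-3 and 3481 and 1704 CPM without it, mostly from Hba-a1, an alpha globin gene. Alas2 was too low to be tested, with 0 and 8 counts with IL-3 and 11 and 4 without it. Of 10 macrophage markers, 6 were tested, and their summed level was 332 and 61.4 CPM with IL-3 and 102 and 220 CPM without it. Of these 6, 1 was lower at an unadjusted p-value under 0.05, beside 3.36% of all genes tested. The 8 eosinophil markers in the table summed to 3118 and 3657 CPM with IL-3 and to 1680 and 1173 CPM without it. Of the 7 tested, 1 was higher and 2 lower at an unadjusted p-value under 0.05, beside 2.56% and 3.36% of all genes tested. Prg2, the major basic protein gene, was at 39.7 CPM in Abl1ko/IL3+ replicate 1 and at 2063 CPM in replicate 2, and Prg3 at 2.95 and 169 CPM. Epx and Ear6, the 2 lower markers, had the opposite order within this pair. Epx stood at 2267 and 1039 CPM and Ear6 at 710 and 262 CPM in replicates 1 and 2. Alox15, the 1 higher marker, stood at 1.55 and 1.45 CPM with IL-3 and at 4.47 and 9.96 CPM without it (log2 fold change 2.26, edgeR adjusted p = 0.727). Il5ra was at 0 in 3 of 4 libraries. The 12 neutrophil markers summed to 2774 and 1925 CPM with IL-3 and to 1968 and 5968 CPM without it. Ngp and Mpo made up most of that sum, and single markers were farther apart. Mmp8 was too low to be tested, at 0 in both Abl1ko/IL3+ libraries and with 18 and 7 counts without IL-3. Of the 11 tested, 5 were higher without IL-3 and 1 lower at an unadjusted p-value under 0.05, and 0 after adjustment, beside 2.56% and 3.36% of all genes tested before adjustment. Their median log2 fold change was 2.31, and 0.40 without Abl1ko/IL3- replicate 2. S100a8, a calprotectin subunit gene of neutrophils with the largest change of the list, stood at 1.15 and 0.386 CPM with IL-3 and at 71.2 and 123 CPM without it (log2 fold change 6.98 ± 0.78 SE, edgeR adjusted p = 0.532). The lower marker was Mpo, at 1879 and 1477 CPM with IL-3 and at 908 and 499 CPM without it (log2 fold change -1.25, edgeR adjusted p = 0.827). Elane and Prtn3 also had log2 fold changes below 0, of -0.58 and -0.15. The 5 T cell markers in the table summed to between 0.73 and 5.44 CPM. Of the 3 tested, 2 were higher without IL-3 at an unadjusted p-value under 0.05, beside 2.56% of all genes tested. The part of these cell types in the levels of the 10 genes was not tested.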

How the data were processed

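RNA-seq was performed by the authors on RNA depleted of ribosomal RNA. Per the paper's methods, reads were aligned to GRCm38 with Rsubread and summarized with featureCounts, while the submitters' processing notes name STAR, Cuffdiff and mm10. The strand setting and tool versions are not given in the sources used here. The authors deposited raw counts per gene and FPKM values, of which each gene's FPKM is its count scaled by length and depth. No exon of the 10 genes overlaps another gene's exon in GENCODE release M21. Windows of 50 bases shared with another gene made up 2.10% of Ms4a2, 0.141% of Hdc and none of the other members.

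Samples were grouped by the labels. The count fit used edgeR 4.0.16 under R 4.3.3: filterByExpr, TMM and the quasi-likelihood F test, two-sided, over 16535 genes with Benjamini-Hochberg adjustment at 0.05. Standard errors were derived from the fold change and the F statistic. The fit was run on simulated counts with known changes, and recovery of these was required only where the simulated spread was low. That requirement does not show the power at the spread of these libraries. Alternatives were DESeq2 1.42.0, library size only, no filter, 10 counts in every library, the replicate block, limma 3.58.1 on log2(FPKM + 1) and log2(FPKM + 0.1), and leaving out each library. The crossed block and the lists without a library were added after seeing the data. All members are named. Genes of the lists are named where their unadjusted p-value is under 0.05 in edgeR, where they lead their list by mean FPKM, or where they are a paralogue, partner or regulator of a member. Cd200r3, Il3ra, Itga2, Cebpa, Il4, Il13, Lyn, Fyn, Vav1, Plcg2 and the marker genes were named after their values were seen. Members and lists were chosen with earlier results of these data known. Library totals were between 48953174 and 60382588 counts, and the spread between libraries limits the precision. Some marker genes are not reported here.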

Additional observations from a re-analysis of the deposited data

How the results depend on the processing

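With 2 libraries in each group, the spread within groups limits every comparison. In edgeR and limma, 0 genes passed the adjusted threshold under either other filter, under library sizes alone, with either limma fit and with either block. DESeq2's Wald test gave 271 genes over all and 0 of the 9 members, and it gave 1 member, Hdc, at an unadjusted p-value under 0.05. The cause was not tested. Tpsb2 was too low to be tested in the main filter at this depth.

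Across genes, libraries with equal replicate numbers in the 2 groups were weakly opposed in how they departed from the group average (correlation -0.211). In a group of 2, the departures of replicates 1 and 2 mirror each other, so both numbers give the same value. This value cannot show whether such libraries share a clone or guide. No source ties a clone or guide to a library, so the libraries were not treated as paired. With the replicate block, 548 genes had an unadjusted p-value under 0.05, against 978 without it, 0 had an adjusted one, and Fcer1a had a log2 fold change of 0.57. With the numbers crossed, an alternative added once the data had been seen, 1136 genes had an unadjusted p-value under 0.05 and 0 an adjusted one, and the log2 fold change of Fcer1a was 0.54.

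The direction of Fcer1a also turned with limma on log2(FPKM + 1), to 0.20, and on log2(FPKM + 0.1), to 0.57, and that of Fcer1g with library size only, to 0.0016. The cause was not tested.

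Leaving out a library gave between 0 and 15 genes with an adjusted p-value under 0.05 (15 without Abl1ko/IL3- replicate 1), between 536 and 2938 with an unadjusted one, and between 0 and 3 members with an unadjusted one. The members' median log2 fold change ranged from -0.99 to 0.068, turning only without Abl1ko/IL3+ replicate 1. Over these 4 fits the log2 fold change of Gata2 ranged from -2.43 to 1.19, of Fcer1a from -3.01 to 4.24, of Cpa3 from -2.81 to 0.81 and of Prss34 from -1.61 to 0.77, each highest without Abl1ko/IL3+ replicate 1. Ms4a2 ranged from -0.68 to 0.18 and Fcer1g from -0.31 to 0.25, both highest without Abl1ko/IL3+ replicate 2, and Mcpt8 from -0.037, without Abl1ko/IL3- replicate 1, to 1.46. Hdc and Srgn kept their direction in every fit run. In these fits the group left with a single library is assumed to vary like the other group.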
